A study of Mus musculus with 60 samples.

Results

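Receptors for the monoamines (serotonin, dopamine, noradrenaline and histamine) and for acetylcholine are the sites at which long-range modulatory inputs act on hippocampal neurons. The genes described here are those whose symbol begins with Htr, Drd, Adra, Adrb, Chrm, Chrn or Hrh followed by a subtype number or letter, leaving out the unrelated Htra proteases. Of 16994 genes with a peak in at least 1 of 12 peak lists, 49 met this rule. They comprised 14 serotonin, 5 dopamine, 9 adrenergic, 4 muscarinic, 13 nicotinic and 4 histamine receptor genes. The gene annotation held 53 genes of these families, and Chrm4, Chrna10, Chrnb1 and Chrne had no peak assigned in any list.

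Most of these receptors couple to G proteins, through which they raise or lower cyclic AMP, mobilise calcium or open potassium channels. The serotonin receptors encoded by Htr3a and Htr3b and the nicotinic acetylcholine receptors are instead ion channels built from 5 subunits. In the hippocampus, such receptors set the excitability of pyramidal and granule cells and take part in synaptic plasticity and memory, and many subtypes belong to inhibitory neurons or to the endings of incoming axons. H4K8ac, acetylation of histone H4 at lysine 8, is found at active promoters and enhancers, and H3K27me3, trimethylation of histone H3 at lysine 27 by the Polycomb complex PRC2, is found at repressed genes.

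CUT&RUN-seq, in which an antibody directs a nuclease to cut out the chromatin that carries a mark, was applied to hippocampal nuclei of male Emx1-NuTRAP mice. In these mice, Cre recombinase expressed from the Emx1 locus switches on tags on nuclei and ribosomes, mainly in excitatory neurons of the forebrain, and because Emx1 is active from development onwards the tag also marks other descendants of the Emx1 lineage. Exercised mice were given free use of a wheel between postnatal days 21 and 41 (early-life exercise), sedentary mice lived in cages without a wheel, and tissue was taken the next day. The labels put 60 samples of these mice in 18 groups by antibody, condition and arm, with 4 samples a group in the SIT arm (nuclei and RNA isolated together from both hippocampi) and 3 in the left and in the right arm (nuclei isolated alone from that hippocampus). The 20 IgG samples are not analysed here. Each of the other groups has 1 peak list of positions and assigned genes, with no signal height, no count and no sample of origin. There are therefore no replicate values, the depth behind a list is unknown, and each list is 1 unit. A peak absent from a list may reflect fewer nuclei that carry the mark or less of it per nucleus, which cannot be told apart in bulk nuclei. The authors left out some exercised H4K8ac libraries of the SIT and separate arms because the false discovery rate of their peaks was high. They also left out animals of a sedentary group and of the exercised group, so a list of either mark may stand for fewer samples than the labels give.

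The lists differed in length within every arm, and the longer condition was not the same in each arm. They held 12168 to 38136 H4K8ac peaks and 9899 to 25693 H3K27me3 peaks. Of 8 excitatory neuron markers, 5 to 8 were listed for H4K8ac and 2 to 3 for H3K27me3, and of 10 inhibitory neuron markers, 1 to 3 were listed for H4K8ac and 7 to 9 for H3K27me3. Emx1 itself was listed in 6 H4K8ac lists and 5 H3K27me3 lists. Of 6 astrocyte markers, 4 exercised and 1 sedentary were listed for H4K8ac in the SIT arm, 2 and 6 in the left arm, and 1 and 3 in the right arm, so this number moved in the same direction as list length. For H3K27me3, 3 to 4 of the 6 were listed. Oligodendrocyte markers numbered 1 to 3 of 7 for H4K8ac and 2 to 4 of 7 for H3K27me3, and microglia markers 1 to 2 of 5 for each mark. The part of other cell types in the values below was not tested.

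The first question was which receptor genes carried which mark in neurons of either condition. Of the 49 receptor genes, 33 had an H4K8ac peak in at least 1 of the 6 lists of that mark, beside 79.9% of all genes, and 31 had an H3K27me3 peak, beside 43.5% of all genes. Each mark was alone on a part of the genes, with 18 listed for H4K8ac alone, 16 for H3K27me3 alone and 15 for both marks in some list, beside 56.5, 20.1 and 23.5% of all genes. By overlap with the gene span plus 3 kb in place of the assigned gene, the number with both marks was 9. Peaks were assigned in all 6 H4K8ac lists to 12 receptor genes, beside 19.3% of all genes, and in all 6 H3K27me3 lists to 9 receptor genes, beside 16.5% of all genes. The genes in all 6 H4K8ac lists were Adra1a, Adra1d, Adra2c, Chrm3, Chrna9, Drd5, Hrh4, Htr1a, Htr4, Htr5a, Htr5b and Htr6. Those in all 6 H3K27me3 lists were Adra1b, Adra2b, Adrb3, Chrm2, Chrna3, Chrnb4, Chrng, Drd2 and Htr2a. Receptors for the same transmitter thus differed from each other, and no receptor gene was in all 12 lists.

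**Figure D1:**
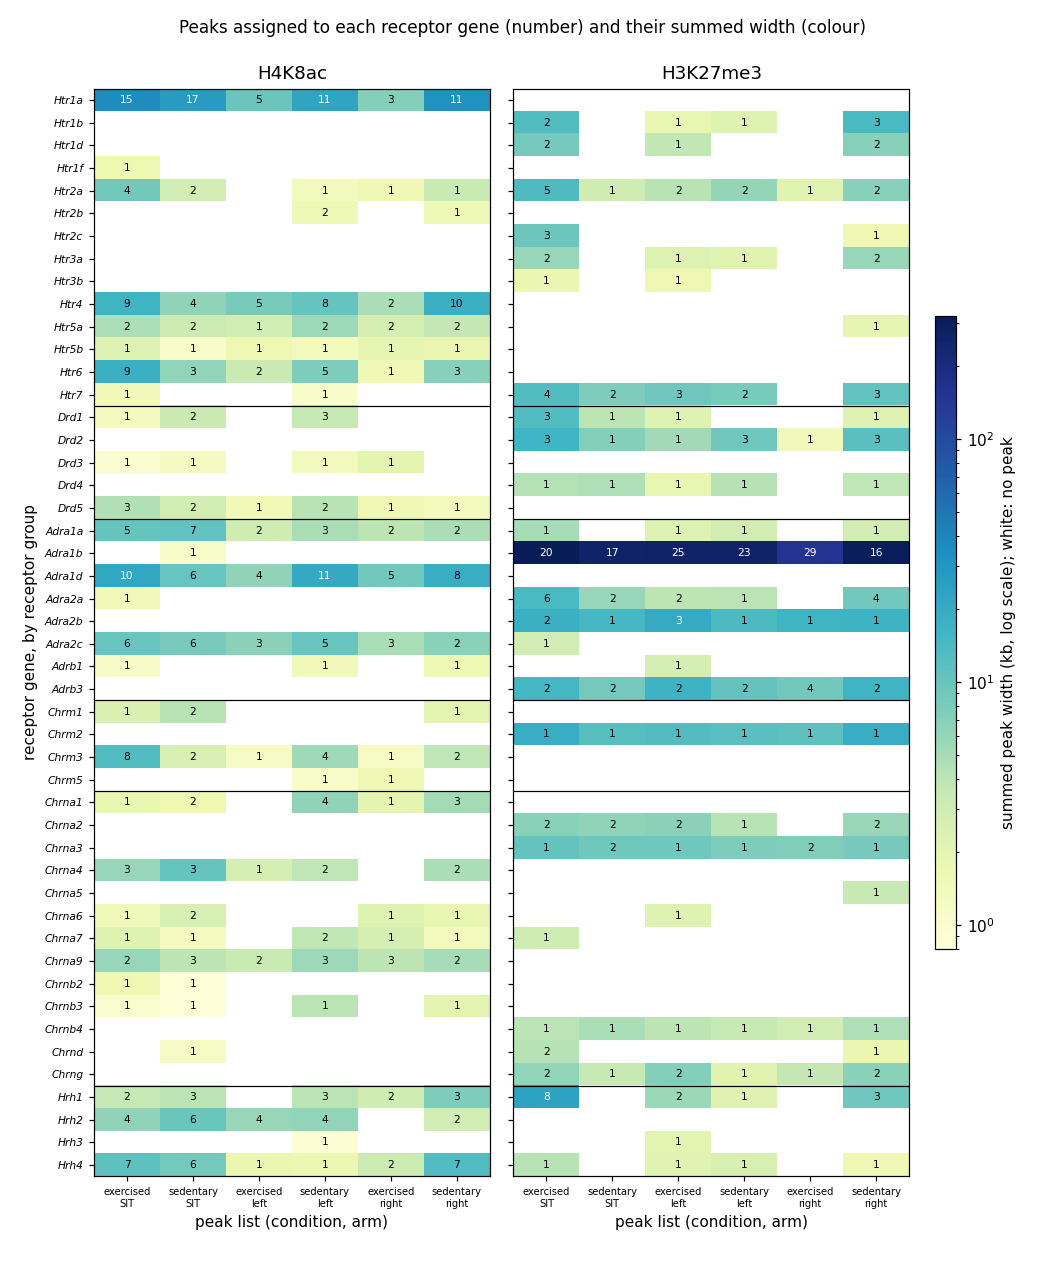
Each row is a receptor gene and each column a peak list of H4K8ac (left panel) or H3K27me3 (right panel), where the printed number counts the peaks assigned to the gene and the colour gives their summed width in kb on a log scale, white meaning no peak. Htr1a, Htr4, Adra1d and Adra2c are filled across the H4K8ac lists and empty or nearly so for H3K27me3, whereas Adra1b, with 16 to 29 H3K27me3 peaks a list, Adra2b, Chrm2 and Chrna3 show the opposite.

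The 6 lists of a mark are given from here on in the order exercised SIT, sedentary SIT, exercised left, sedentary left, exercised right and sedentary right. Of the 14 serotonin receptor genes, 6 were listed for H4K8ac alone, 5 for H3K27me3 alone and 3 for both marks. Htr1a, which encodes an inhibitory receptor abundant on hippocampal pyramidal cells, had 15, 17, 5, 11, 3 and 11 H4K8ac peaks and no H3K27me3 peak. Their summed widths were 35869, 27108, 9655, 22684, 7114 and 31646 bp, so that the exercised left and right lists were the lowest and all other lists were higher. A peak covered the Htr1a start site in exercised and sedentary SIT, sedentary left and sedentary right, and in neither of the exercised left and right lists. Those 2 lists also covered fewer start sites over all protein-coding genes, 6.11 and 7.52%, beside 15.7 and 13.6% in sedentary left and right. The widest Htr1a peak, 6391 bp in exercised SIT, spanned the whole gene of 4484 bp. Most of the others were distal intergenic peaks, as far as 693125 bp downstream, and were assigned by distance. Distances are those in the files, to the start of the transcript to which a peak was assigned. One merged region, 202860 bp from the start and 6867 bp wide, held a peak of all 6 lists.

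Htr5a and Htr5b, which encode related receptors that couple to inhibitory G proteins, had H4K8ac peaks at fixed places in all 6 lists. For Htr5a the peak covered the start site in 5 lists and began 237 bp downstream of it in sedentary SIT, with widths of 2203, 2145, 2878, 2434, 1476 and 2158 bp. A stretch at chr5:27842386-27843361 (mm10) was covered in all 6 lists. For Htr5b the peak lay at the opposite end of the gene, over the end of the last exon and 16790 to 17172 bp from the start, with widths of 2385, 1072, 1649, 1392, 1906 and 1748 bp. Widths in the exercised lists were thus above those of sedentary in each arm for Htr5b, which was not so for Htr5a. With a peak assigned to Ccdc93 counted too, sedentary SIT had 2162 bp covered within 3 kb of Htr5b, beside 2385 bp in exercised SIT. The promoter windows of Htr5a and Htr1a, from 250 bases before to 50 after the RefSeq start (GRCm38.p6), are shown because H4K8ac peaks lay over them in 4 of 6 lists each, with CpG dinucleotides, the sites of DNA methylation, in capitals. The Htr5a window, chr5:27841697-27841996 on the plus strand, holds 14 CpG and the Htr1a window, chr13:105443443-105443742 on the plus strand, holds 7.
Htr5a: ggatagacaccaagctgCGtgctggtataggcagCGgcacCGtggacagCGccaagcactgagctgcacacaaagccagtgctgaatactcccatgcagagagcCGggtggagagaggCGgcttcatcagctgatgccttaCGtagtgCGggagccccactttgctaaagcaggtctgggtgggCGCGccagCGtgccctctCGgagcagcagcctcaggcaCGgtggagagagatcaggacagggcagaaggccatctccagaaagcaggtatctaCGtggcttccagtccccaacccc
Htr1a: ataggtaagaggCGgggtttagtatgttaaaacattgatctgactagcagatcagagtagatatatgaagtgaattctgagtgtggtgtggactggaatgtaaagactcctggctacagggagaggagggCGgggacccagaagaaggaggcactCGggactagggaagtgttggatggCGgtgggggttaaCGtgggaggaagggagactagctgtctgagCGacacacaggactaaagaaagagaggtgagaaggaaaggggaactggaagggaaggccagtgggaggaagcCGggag

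Htr4 and Htr6 encode receptors that raise cyclic AMP. Htr4 had 9, 4, 5, 8, 2 and 10 H4K8ac peaks, spread from 69119 bp before to 66154 bp after the nearest start, and Htr6 had 9, 3, 2, 5, 1 and 3. Peaks 39642 to 40528 bp downstream of the Htr6 start recurred in every list but exercised left, and peaks at 49459 to 49609 bp in every list but exercised right. The Htr6 start sites were covered in exercised SIT and sedentary left alone. Htr2a, which encodes the excitatory receptor at which psychedelic drugs act, was the only serotonin receptor gene in all 6 H3K27me3 lists, with summed widths of 13548, 3086, 4125, 5995, 2143 and 6993 bp. It also had H4K8ac peaks in every list but exercised left. Htr7, a receptor that raises cyclic AMP, had H3K27me3 peaks in 5 lists, with 12712, 7667, 9229, 8189, 0 and 10617 bp, and H4K8ac peaks in exercised SIT and sedentary left in the same intron, 53370 and 53548 bp from the start.

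The genes for the presynaptic autoreceptors Htr1b and Htr1d, for Htr2c and for the ion channel subunits Htr3a and Htr3b had H3K27me3 peaks and no H4K8ac peak. Htr1b had summed widths of 12780, 0, 1855, 2271, 0 and 14520 bp, Htr1d 8317, 0, 3789, 0, 0 and 7023 bp, and Htr3a 5867, 0, 2376, 2147, 0 and 5938 bp. Exercised SIT and sedentary right were the highest lists for each of the 3 genes, and sedentary SIT and exercised right were empty. With peaks assigned to D430036J16Rik counted too, 3669 and 6996 bp were covered within 3 kb of Htr1b in the exercised and sedentary left lists. Htr2c was listed in exercised SIT and sedentary right alone, with 9474 and 1628 bp, and Htr3b, which lies 23908 bp from Htr3a, in exercised SIT and exercised left alone, with 1746 and 1643 bp. H4K8ac was assigned to Htr2b in sedentary left and sedentary right and to Htr1f in exercised SIT alone, where its 1684 bp peak covered the start. Htr5a was in 1 H3K27me3 list, sedentary right, by a 1944 bp peak 8950 bp before its start.

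The 5 dopamine receptor genes divided between the marks in a way that did not follow the receptor class. Drd5, one of the receptors of the D1 class that raise cyclic AMP, had H4K8ac peaks in all 6 lists, with 4478, 2946, 1501, 4188, 1597 and 1350 bp, and no H3K27me3 peak. Its start site was covered in 5 lists, and in exercised right the peak lay 9428 bp before it. Drd2, an inhibitory receptor, had H3K27me3 peaks in all 6 lists, with 16235, 7114, 5215, 9090, 1424 and 11625 bp, and no H4K8ac peak. The lowest Drd2 value was exercised right, whose single peak ended 699 bp before the start, and in all other lists a peak covered the start. Bases covered within 3 kb of the Drd2 span, which take in peaks assigned to its neighbour Ankk1, were 13246 in exercised left and 9090 in sedentary left, the reverse of the order by assigned width. Drd4 had 1 H3K27me3 peak in every list but exercised right. It covered a start site in 4 lists, and in exercised left it lay inside the gene, 267 bp past the start of a shorter transcript. Drd1 had H3K27me3 peaks of 12872, 3959, 2259, 0, 0 and 2189 bp and H4K8ac peaks of 1306, 3295, 0, 3544, 0 and 0 bp, and in sedentary SIT a peak of one mark overlapped a peak of the other at the promoter. Drd3, an inhibitory receptor, had a single H4K8ac peak in each of 4 lists, 39243 to 43869 bp from its nearest start. The Drd2 window (chr9:49340153-49340452, plus strand, 23 CpG) and the Drd5 window (chr5:38319259-38319558, plus strand, 38 CpG) are shown as a contrast, since each was under a peak of its mark in 5 of 6 lists and under a peak of the other mark in none.
Drd2: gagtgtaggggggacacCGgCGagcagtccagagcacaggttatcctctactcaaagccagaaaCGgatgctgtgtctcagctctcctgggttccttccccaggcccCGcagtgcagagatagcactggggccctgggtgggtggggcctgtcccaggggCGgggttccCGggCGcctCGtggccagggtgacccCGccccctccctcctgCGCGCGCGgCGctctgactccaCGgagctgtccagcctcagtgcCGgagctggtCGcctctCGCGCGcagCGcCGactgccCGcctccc
Drd5: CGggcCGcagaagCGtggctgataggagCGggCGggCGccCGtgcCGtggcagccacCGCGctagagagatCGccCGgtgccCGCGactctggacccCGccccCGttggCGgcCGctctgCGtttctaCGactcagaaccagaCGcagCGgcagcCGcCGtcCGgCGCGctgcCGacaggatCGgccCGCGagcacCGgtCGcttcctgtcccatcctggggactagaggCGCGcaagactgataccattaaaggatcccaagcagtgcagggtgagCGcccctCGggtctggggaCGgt

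Of the 9 adrenergic receptor genes, Adra1b stood apart by the extent of its H3K27me3. Adra1b, an alpha-1 receptor that mobilises calcium, was assigned 20, 17, 25, 23, 29 and 16 peaks, with summed widths of 314222, 257913, 270474, 254151, 152497 and 306999 bp. The exercised right list held the most peaks and the smallest width, so that its peaks were shorter, and the other 5 lists lay between 254151 and 314222 bp. These peaks ran along the gene (chr11:43774606-43901210, minus strand) and along the sequence before its start, where the farthest lay 247263 bp upstream. Their widest, 79756 bp in exercised SIT, was also the widest of any receptor gene and lay 135790 bp before the start, in an intron of another transcript. Within 3 kb of the gene span, H3K27me3 covered 112260, 90022, 86002, 86437, 49657 and 109534 bp, so most of the assigned width lay outside. Merged over the lists, 6 Adra1b regions held peaks from all 6 lists, and 1 of them, of 94501 bp, reached over a start site inside the gene. One H4K8ac peak of 1067 bp, in sedentary SIT, was assigned to Adra1b, 1258 bp from the nearest H3K27me3 peak.

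**Figure D2:**
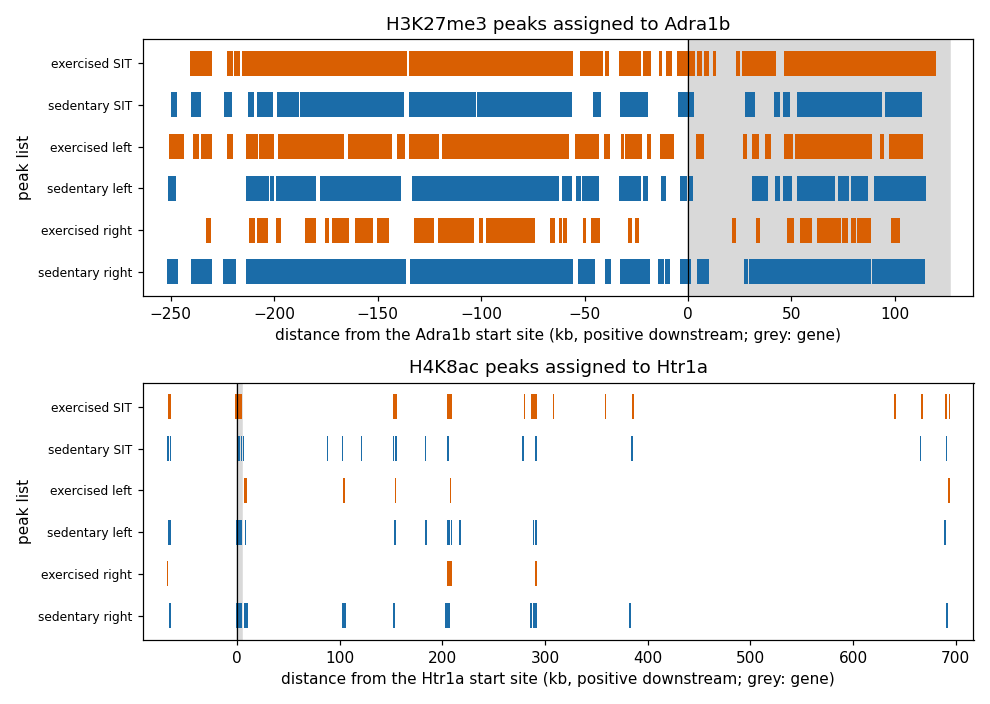
Peaks assigned to Adra1b for H3K27me3 (top) and to Htr1a for H4K8ac (bottom) are drawn by list, with distance from the gene's start site in kb on the horizontal axis, orange for exercised, blue for sedentary lists and grey for the gene. Adra1b peaks form a dense row in 5 lists and a broken row in exercised right, and Htr1a peaks cover the start in 4 lists, with isolated peaks up to 693125 bp downstream.

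Adra2b, an alpha-2 receptor that lowers cyclic AMP, had H3K27me3 widths of 17639, 14718, 20082, 13775, 16530 and 17092 bp and no H4K8ac peak. Sedentary left was the lowest and exercised left the highest of these lists, and in every list a peak covered the start of this gene of 4014 bp. Adrb3, a beta receptor best known from fat tissue, had 15080, 8617, 16982, 10371, 8844 and 16413 bp. The H4K8ac mark was instead assigned in all 6 lists to Adra1d, with 21436, 9940, 6290, 20553, 8858 and 18948 bp, to Adra2c, with 9925, 8207, 6601, 9991, 4960 and 6841 bp, and to Adra1a, with 10163, 10514, 3039, 4946, 4010 and 4799 bp. None of the Adra1a peaks lay within 3 kb of the gene, and their shared region was 138851 bp before the start. The widest Adra1d peak, 4115 bp in sedentary left, lay 87069 bp before its start in an exon of another transcript. Adra1a also had 1 H3K27me3 peak over its start in 4 lists, of 2364 to 5040 bp, and none in sedentary SIT and exercised right.

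Adra2a, the alpha-2 receptor that serves as an autoreceptor, was in every H3K27me3 list but exercised right. Only in exercised SIT did any of those peaks lie within 3 kb of the gene, and there a promoter peak of 1871 bp overlapped its only H4K8ac peak, of 1461 bp. Adrb1, the main beta receptor of forebrain neurons, had 1 distal H4K8ac peak in exercised SIT, sedentary left and sedentary right and 1 H3K27me3 peak in exercised left, none nearer than 10675 bp to its start. Adra2c was in 1 H3K27me3 list, exercised SIT, by a peak of 2927 bp lying 46025 bp before its start. The Adra2b window, chr2:127362929-127363228 on the plus strand with 29 CpG, is shown because an H3K27me3 peak lay over it in all 6 lists.
Adra2b: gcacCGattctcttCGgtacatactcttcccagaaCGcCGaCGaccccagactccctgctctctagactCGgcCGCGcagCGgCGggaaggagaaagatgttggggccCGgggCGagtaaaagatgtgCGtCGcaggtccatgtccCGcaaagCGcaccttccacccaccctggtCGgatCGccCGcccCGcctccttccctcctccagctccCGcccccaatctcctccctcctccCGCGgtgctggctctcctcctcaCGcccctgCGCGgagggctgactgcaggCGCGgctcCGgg

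Muscarinic receptors carry the slow actions of acetylcholine. Chrm2, an inhibitory receptor of cholinergic endings and of some interneurons, had a single H3K27me3 peak over its start in every list, of 19218, 12187, 12729, 11908, 11156 and 19274 bp, with exercised SIT and sedentary right the highest. Its window, chr6:36387834-36388133 on the plus strand, holds 16 CpG and lay under that peak in all 6 lists. Chrm1, Chrm3 and Chrm5, which mobilise calcium, had H4K8ac peaks alone. Chrm3 had 12956, 2586, 1138, 5379, 1138 and 3922 bp over 8, 2, 1, 4, 1 and 2 peaks, and its start was covered in exercised SIT alone. Chrm1, the main muscarinic receptor of pyramidal cells, had 2410, 4122, 0, 0, 0 and 2046 bp, near its start or its end. Chrm5 was listed in sedentary left and exercised right, by 1 peak each.
Chrm2: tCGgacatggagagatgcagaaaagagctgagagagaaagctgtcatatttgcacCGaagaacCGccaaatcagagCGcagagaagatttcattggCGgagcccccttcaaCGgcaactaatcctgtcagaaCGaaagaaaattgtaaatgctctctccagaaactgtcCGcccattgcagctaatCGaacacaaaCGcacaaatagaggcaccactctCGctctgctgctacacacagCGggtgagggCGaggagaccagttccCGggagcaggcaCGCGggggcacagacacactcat

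Nicotinic receptor genes gave 5 listed for H4K8ac alone, 5 for H3K27me3 alone and 3 for both. The gene cluster of Chrna5, Chrna3 and Chrnb4, subunits that assemble together in autonomic and habenular neurons, carried H3K27me3 at 2 of its 3 genes in all 6 lists. Chrna3 had 10381, 9119, 9024, 7681, 7524 and 8480 bp and Chrnb4 4100, 4829, 3930, 3559, 2892 and 4532 bp, each with a peak over the start, and exercised right was the lowest list for both. Chrna5, whose end lies 2331 bp from the end of Chrna3, was listed in sedentary right alone, by a peak of 3571 bp over its start. Chrng, the subunit of fetal muscle receptors, had 6190, 3526, 7130, 2135, 3692 and 6803 bp, and its neighbour Chrnd, also a muscle subunit, had 4281 bp in exercised SIT and 1765 bp in sedentary right. Chrna2, a subunit of a class of hippocampal interneurons, had 1 or 2 peaks near its start in every H3K27me3 list but exercised right. The windows of Chrna3 (chr9:55026513-55026812, minus strand, 18 CpG) and Chrnb4 (chr9:55048495-55048794, minus strand, 14 CpG) are shown because they lie in the same cluster and were each under an H3K27me3 peak in all 6 lists.
Chrna3: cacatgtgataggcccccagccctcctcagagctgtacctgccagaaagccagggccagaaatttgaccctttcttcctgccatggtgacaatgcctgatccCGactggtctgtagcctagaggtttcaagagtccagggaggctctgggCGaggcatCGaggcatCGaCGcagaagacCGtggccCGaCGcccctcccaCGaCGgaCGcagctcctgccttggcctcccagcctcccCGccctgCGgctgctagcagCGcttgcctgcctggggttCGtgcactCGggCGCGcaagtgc
Chrnb4: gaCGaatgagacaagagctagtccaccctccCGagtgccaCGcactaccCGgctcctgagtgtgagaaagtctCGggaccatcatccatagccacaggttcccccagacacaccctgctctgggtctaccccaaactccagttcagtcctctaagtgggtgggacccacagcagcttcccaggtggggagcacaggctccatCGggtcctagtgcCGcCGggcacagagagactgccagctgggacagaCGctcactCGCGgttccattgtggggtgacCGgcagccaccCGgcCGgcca

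The nicotinic subunits Chrna4 and Chrnb2, which form the most common receptor of the brain, and Chrna7, which forms a receptor of a single subunit kind, were on the H4K8ac side. Chrna4 had 5983, 10247, 2738, 3903, 0 and 4827 bp, and its 6729 bp peak in sedentary SIT, 22236 bp before the start, was the widest H4K8ac peak of any receptor gene. Chrnb2 had 1 peak over its start in each SIT list, of 1634 and 850 bp, and no assigned peak in the other lists, although a peak assigned to Adar covered 786 bp within 3 kb of it in sedentary left. Chrna7 had peaks in every list but exercised left, and the one that recurred lay 109138 to 109739 bp before its start. Its only H3K27me3 peak, in exercised SIT, was 338763 bp from the start. Chrna1 had peaks in every list but exercised left, with 1784, 1650, 0, 6389, 1964 and 5162 bp. Chrna6 and Chrnb3 lie 3481 bp apart and were each in 4 H4K8ac lists, of which 3 were the same (exercised SIT, sedentary SIT and sedentary right). Chrna9, best known from hair cells of the inner ear, was in all 6 H4K8ac lists with 5924, 3958, 3370, 5559, 3968 and 4970 bp. Its peaks were classed as intron or exon and fell in 2 regions held by all 6 lists and 1 region held by 3, none of them over a start site. The 300 bases at the centre of the stretch common to all lists in one of these regions (chr5:65954918-65955217, plus strand, 7 CpG) are shown as an example of acetylated sequence away from a start site.
Chrna9: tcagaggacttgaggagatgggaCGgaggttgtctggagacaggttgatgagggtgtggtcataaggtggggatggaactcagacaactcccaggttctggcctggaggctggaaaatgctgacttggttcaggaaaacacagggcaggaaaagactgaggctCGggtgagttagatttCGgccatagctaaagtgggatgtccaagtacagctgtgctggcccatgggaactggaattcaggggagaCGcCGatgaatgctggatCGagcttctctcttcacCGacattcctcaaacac

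Among the histamine receptor genes, Hrh3, the autoreceptor of histamine neurons, was in 1 list of each mark, sedentary left for H4K8ac (908 bp) and exercised left for H3K27me3 (2051 bp over the start). Hrh2, which raises cyclic AMP, had H4K8ac peaks of 6334, 9613, 5927, 6176, 0 and 2861 bp and no H3K27me3 peak. Hrh1, which mobilises calcium, had H4K8ac peaks in every list but exercised left and H3K27me3 peaks of 23371, 0, 5681, 2228, 0 and 9019 bp, with exercised SIT the highest. Hrh4, known from blood cells, was assigned H4K8ac peaks in all 6 lists, yet none lay within 3 kb of the gene and the nearest was 40119 bp from its start. Hrh4 was also in every H3K27me3 list but sedentary SIT and exercised right. For its H4K8ac peaks the assignment thus rests on distance alone.

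Where the 2 marks were listed for a gene in the same arm and condition, their peaks mostly lay apart. This concerned 11 genes (Adra1a, Adra1b, Adra2a, Adra2c, Chrna7, Drd1, Hrh1, Hrh4, Htr2a, Htr5a and Htr7) and 25 pairs of lists. In 3 pairs, peaks of the marks overlapped, for Adra2a in exercised SIT, Drd1 in sedentary SIT and Htr2a in exercised SIT, each at the promoter. Of the pairs without overlap, the nearest gap was 785 bp, for Hrh1 in sedentary right. The share of listed receptor genes with both marks ran from 3.7 to 20.5% over the 6 arm and condition pairs, beside 8.94 to 19.9% of all listed genes.

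The positions of the marks are described beside those over all genes, with no test. Of 407 H4K8ac peaks assigned to receptor genes, 186 (45.7%) lay more than 50 kb from a start site, beside 33.3% of all H4K8ac peaks, and of 313 H3K27me3 peaks, 71 (22.7%) did, beside 39.0% of all H3K27me3 peaks. Promoter peaks made up 29.27 to 40.35% of the receptor genes' H3K27me3 peaks, beside 17.87 to 25.45% over all genes, and 11.76 to 21.21% of their H4K8ac peaks, beside 19.27 to 26.5%. Each of these ranges holds 1 value a list, and peaks of 1 gene, above all those of Adra1b, are not independent.

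Start sites inside a peak were also counted, whatever gene the peak was assigned to. An H3K27me3 peak covered a start site of 17 of the 53 receptor genes in exercised SIT (32.1%, beside 11.7% of 21842 protein-coding genes) and of 10 in sedentary SIT (18.9%, beside 8.02%). In the left arm it covered 12 in exercised and 12 in sedentary lists (22.6% each, beside 9.13 and 8.35%), and in the right arm 7 in exercised (13.2%, beside 5.8%) and 16 in sedentary (30.2%, beside 11.1%). For H4K8ac the shares of receptor genes were 22.6, 11.3, 7.55, 13.2, 5.66 and 9.43%, beside 21.6, 9.48, 6.11, 15.7, 7.52 and 13.6% of protein-coding genes. The receptor share was higher in 6 of 6 lists for H3K27me3 and in 3 of 6 for H4K8ac. Adra1b, Adra2b, Chrm2, Chrna3 and Chrnb4 had a start site under H3K27me3 in all 6 lists, and no receptor gene had one under H4K8ac in all 6.

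**Figure D3:**
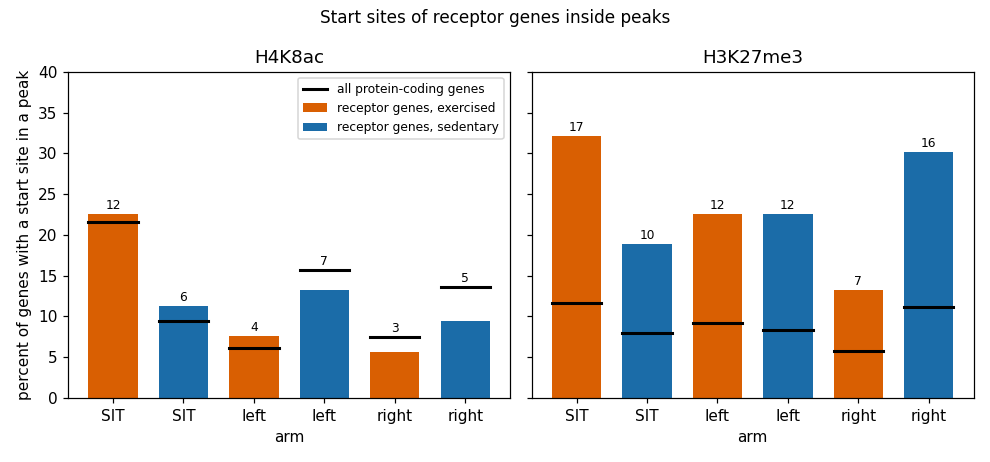
Bars show the percent of the 53 receptor genes with a start site inside a peak in each list (orange for exercised and blue for sedentary, with the number of genes above) and black lines the percent of all protein-coding genes. For H3K27me3 every bar reaches above its line, from 13.2% in exercised right to 32.1% in exercised SIT, while for H4K8ac bars lie on either side of their lines.

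Among receptor genes, 8 of 13 H3K27me3 regions held by all 6 lists lay over a start site, and 1 of 10 such H4K8ac regions did. The same share over all genes was not computed, so this contrast may not be particular to the receptor genes. After merging overlapping peaks of the 6 lists, whatever gene they were assigned to in each, the receptor genes had 161 H4K8ac regions, of which 10 (6.21%, beside 5.99% of all regions) held peaks of all 6 lists and 66 (41.0%, beside 49.9%) of 1 list. They had 81 H3K27me3 regions, of which 13 (16.0%, beside 16.7%) held peaks of all 6 lists and 32 (39.5%, beside 37.5%) of 1 list. Of the 8 genes with an H3K27me3 region in all 6 lists, 8 had one over a start site, namely Adra1b, Adra2b, Adrb3, Chrm2, Chrna3, Chrnb4, Chrng and Drd2. The H3K27me3 regions of all 6 lists that lay away from a start site were all of Adra1b. Of the 8 genes with such an H4K8ac region (Adra1a, Adra2c, Chrna4, Chrna9, Hrh2, Htr1a, Htr5a and Htr5b), Htr5a alone had it over a start site.

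RefSeq promoter windows were found for 40 of the 53 receptor genes (49 windows of 300 bp). Those without one included Adra1a, Adra1d, Adrb3, Chrm1, Chrna2, Chrna6, Chrnb3, Chrnd, Hrh4, Htr3a, Htr4 and Htr5b. The 49 windows had a median GC content of 59.3% with a median of 14.0 CpG, beside 52.7% and 7.0 CpG over 32841 windows of all genes. The 5 windows under H3K27me3 in all 6 lists, of Adra1b, Adra2b, Chrm2, Chrna3 and Chrnb4, held 14 to 29 CpG with a median of 18.0, and the 29 windows under no H3K27me3 list held 1 to 39 with a median of 12. Over all genes, windows under 6, 1 to 5 and 0 H3K27me3 lists had medians of 12, 5.0 and 7.0 CpG. The highest CpG counts, 47 for Hrh3 and 46 for Htr7, were in windows under H3K27me3 in 1 list each, and Chrna7, with 35, was under it in none. The cyclic AMP response element TGACGTCA, which reads the same on both strands, was found in 0 of the 49 windows and in 1.79% of all windows.

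**Figure D4:**
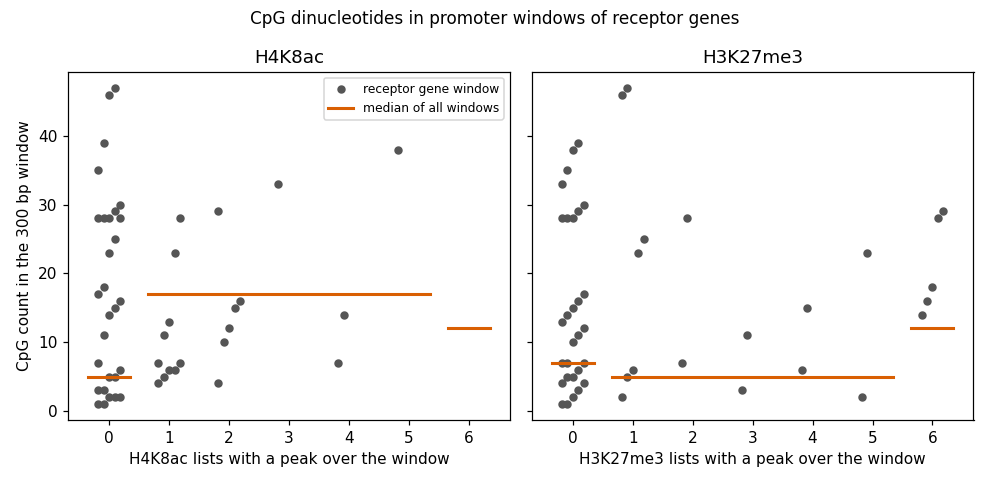
Each point is a promoter window of a receptor gene, placed by the number of H4K8ac (left) or H3K27me3 (right) lists with a peak over it and by its CpG count in 300 bp, and orange lines are medians of all windows with 0, 1 to 5 or 6 lists. Windows under H3K27me3 in all 6 lists hold 14 to 29 CpG, those in 1 to 5 lists 2 to 47, and windows with no H3K27me3 peak spread from 1 to 39.

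The second question was whether exercise was accompanied by a different set of marked receptor genes. In each arm the longer list held more receptor genes, and which condition had it differed between arms. For H4K8ac, exercised and sedentary lists held 28 and 26 receptor genes in the SIT arm (beside 63.2 and 51.0% of all genes), 14 and 26 in the left arm (30.0 and 60.1%), and 19 and 23 in the right arm (34.1 and 49.0%). As a share of the 49 genes these were 57.14, 53.06, 28.57, 53.06, 38.78 and 46.94%. For H3K27me3, the numbers were 25 and 14 in the SIT arm (beside 38.1 and 22.5% of all genes), 24 and 18 in the left arm (30.6 and 27.5%), and 9 and 25 in the right arm (20.6 and 35.4%). These were shares of 51.02, 28.57, 48.98, 36.73, 18.37 and 51.02% of the 49 genes. The exercised minus sedentary difference was 2, -12 and -4 genes for H4K8ac in the SIT, left and right arms, with a mean of -4.67 ± 7.02 (SD, n = 3 arms) and p = 0.5 in an exact permutation test that flips the sign of each arm, two-sided (adjusted p = 1.0 over 2 marks). For H3K27me3 it was 11, 6 and -16 genes, with a mean of 0.333 ± 14.4 (SD, n = 3 arms) and p = 1.0 in the same exact test (adjusted p = 1.0). With 3 arms the smallest p this test allows is 0.25. With equal numbers of peaks in both lists of an arm, keeping the widest of the longer list, the mean was 0 for H4K8ac and -1 for H3K27me3. With 2 or more peaks asked for, the H4K8ac difference was below 0 in all 3 arms, with a mean of -6 and p = 0.25 in the exact test. By start sites inside a peak the mean was 0.333 for H4K8ac and -0.667 for H3K27me3, and leaving out the SIT arm gave -8 and -5, the left arm -1 and -2.5, and the right arm -5 and 8.5, each for H4K8ac first. The exercised left and right H4K8ac lists were the shortest of that mark (12168 and 13715 peaks). The authors left out some exercised H4K8ac libraries of the separate arms, and whether these 2 lists hold those libraries is not stated. The part of list length and of these libraries in the H4K8ac differences and losses was not tested.

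Genes listed in the exercised list alone are called gained, and those in the sedentary list alone lost. In the SIT arm, the H4K8ac lists shared 24 of 30 receptor genes, with 4 gained (Adra2a, Adrb1, Htr1f and Htr7, beside 27.5% of all genes listed there) and 2 lost (Adra1b and Chrnd, beside 10.1%). In the left arm they shared 14 of 26, with 0 gained (beside 3.58%) and 12 lost (beside 51.9%), namely Adrb1, Chrm5, Chrna1, Chrna7, Chrnb3, Drd1, Drd3, Hrh1, Hrh3, Htr2a, Htr2b and Htr7. In the right arm they shared 17 of 25, with 2 gained (Chrm5 and Drd3, beside 9.14%) and 6 lost (beside 36.7%), namely Adrb1, Chrm1, Chrna4, Chrnb3, Hrh2 and Htr2b. As shares of the receptor genes listed in an arm, these gains and losses were below those of all genes in each arm. With equal numbers of peaks, 3 receptor genes were gained and 4 lost in the SIT arm (beside 22.7 and 14.8% of all genes listed), 2 and 3 in the left arm (23.9 and 24.0%), and 5 and 3 in the right arm (25.6 and 22.1%), so that the larger of gains and losses changed in the SIT and right arms and the losses no longer lay mainly in the left arm.

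For H3K27me3, the SIT lists shared 14 of 25 receptor genes, with 0 lost (beside 1.02%) and 11 gained (beside 41.4%), namely Adra1a, Adra2c, Chrna7, Chrnd, Hrh1, Hrh4, Htr1b, Htr1d, Htr2c, Htr3a and Htr3b. In the left arm they shared 18 of 24, with 6 gained (Adrb1, Chrna6, Drd1, Hrh3, Htr1d and Htr3b, beside 18.5%) and 0 lost (beside 9.13%). In the right arm they shared 9 of 25, with 0 gained (beside 3.12%) and 16 lost (beside 43.6%), among them Adra1a, Adra2a, Chrna2, Chrna5, Chrnd, Drd1, Drd4, Hrh1, Hrh4, Htr1b, Htr1d, Htr2c, Htr3a, Htr5a and Htr7. The 9 genes shared in the right arm were the 9 present in all 6 lists. With equal numbers of peaks, 6 receptor genes were gained and 2 lost in the SIT arm (beside 14.6 and 12% of all genes listed), 4 and 4 in the left arm (13.7 and 14.6%), and 0 and 7 in the right arm (13.3 and 20.7%).

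**Figure D5:**
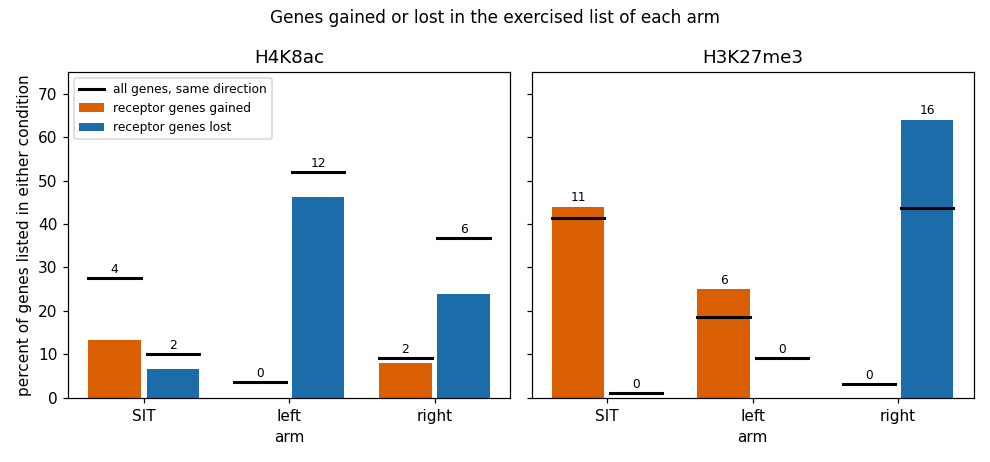
Bars give the percent of listed receptor genes that were gained (orange) or lost (blue) in the exercised list of each arm, with their number above, and black lines the percent of all listed genes. H3K27me3 gains fall in the SIT (11 genes) and left (6) arms and its losses in the right arm (16 genes), while H4K8ac losses fall mainly in the left arm (12 genes). With equal numbers of peaks, which the bars do not show, H3K27me3 gains were 6, 4 and 0 and losses 2, 4 and 7 in the 3 arms, and H4K8ac losses in the left arm were 3.

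No receptor gene was gained in all 3 arms or lost in all 3 arms for either mark when 1 assigned peak made a gene listed. Chrna1 counted as lost for H4K8ac in all 3 arms when 2 or more peaks were asked for (beside 0.394% of all genes), and Chrnb3 with equal numbers of peaks (beside 0.129%). Both genes kept assigned peaks in exercised SIT, of 1784 bp for Chrna1 and 1015 bp for Chrnb3, beside 1650 and 854 bp in sedentary SIT. Chrna1 also kept 1964 bp in exercised right. Over all genes, with 1 peak, 0.100% were gained and 0.712% lost in all 3 arms for H4K8ac, and 0.0824% gained and 0.0177% lost for H3K27me3. Some genes changed in opposite directions between arms. For H4K8ac these were 4 genes (Adrb1, Chrm5, Drd3 and Htr7, beside 13.0% of all genes), and for H3K27me3 9 genes (Adra1a, Chrnd, Drd1, Hrh1, Hrh4, Htr1b, Htr1d, Htr2c and Htr3a, beside 10.4% of all genes).

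Widths of the shared genes moved with list length as well. Over H4K8ac peaks of receptor genes, the ratio of exercised to sedentary summed width was 1.45, 0.415 and 0.406 in the SIT, left and right arms, beside 1.73, 0.391 and 0.437 over all peaks. Of the shared genes, 16 of 24, 2 of 14 and 4 of 17 had the larger width in the exercised list, beside 81.2, 18.5 and 14.9% of all shared genes. For H3K27me3 the ratios were 1.57, 1.14 and 0.429, beside 1.88, 1.25 and 0.36, and 12 of 14, 11 of 18 and 0 of 9 shared genes were wider in the exercised list, beside 87.9, 66.5 and 5.77% of all shared genes. Adra1b alone held 57.3 to 73.8% of the receptor genes' H3K27me3 width in each list, most of it outside the gene span plus 3 kb. Without Adra1b the H3K27me3 ratios were 2.56, 1.34 and 0.311, so that their order against all peaks turned in each arm, an alternative added after the data were seen. Of the 12 genes in all 6 H4K8ac lists, Htr5b was wider in the exercised list of each arm and Adra1a in the sedentary list of each arm, and the others were mixed. These 2 genes were singled out after their values were seen.

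Genes that make, carry or break down the transmitters gave a background for the receptors. Of 23 such genes, 14 were listed for H3K27me3 in some list and 12 for H4K8ac, beside 43.5 and 79.9% of all genes with a peak in any list. The 23 include Pnmt, Slc29a4, Slc18a3 and Maob, which had no peak in any list, so these shares are not over like sets. Those in all 6 H3K27me3 lists were 9, beside 16.5% of all genes with a peak in any list. They were the synthetic enzymes Th, Ddc, Tph2 and Chat, the transporters Slc6a2, Slc6a3, Slc6a4 and Slc22a3, and the choline transporter Slc5a7. Most of these are genes of the neurons that release the transmitters, whose cell bodies lie mostly outside the hippocampus. Dbh, Tph2 and the cholinesterase gene Bche were in all 6 H4K8ac lists (beside 19.3% of all genes), so that Tph2 held both marks throughout. Of 16 genes for G protein alpha subunits, arrestins and receptor partners, 14 were listed for H4K8ac and 6 for H3K27me3, beside 79.9 and 43.5%. Tmem35a, 1 of the 16, had no peak in any list. Gnai1, Gnai2 and Gnaz, alpha subunits of the inhibitory class, were in all 6 H4K8ac lists (beside 19.3% of all genes). Gnas, Gna14, the nicotinic receptor chaperone gene Ric3 and Lypd6 were in all 6 H3K27me3 lists (beside 16.5%).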

How the data were processed

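Peak lists were analysed for H4K8ac and H3K27me3, 1 list for each group. The authors used Bowtie2 2.4.1 for alignment (versions per the submitters' processing notes), called peaks with SEACR (stringent), and annotated them with ChIPseeker 1.8.6 on mm10, the promoter reaching 3 kb either side of a start. How the libraries of a group were combined, and which of them each list holds, is not stated. The deposited tables give peak positions and widths in bp, an annotation class, a distance to the start and a gene symbol, and no counts or signal, so depth is unknown. The members and lists were chosen with earlier results of these data known.

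A gene counted as listed where it had 1 or more assigned peaks. Named were members held by all 6 lists of a mark or by 1, those changed alike in 3 arms, those with both marks in an arm and condition, those with the 3 widest peaks per mark, neighbouring subunit genes, and members without a peak. Other members are given for completeness, and 1 member that enters the counts is not reported here by name. Overlap meant at least 1 bp. Gene spans came from GENCODE M21, in which 81 of 82 assigned transcripts had the same ends. Windows came from RefSeq (GRCm38.p6). Differences over arms were tested by exact permutation of signs, two-sided, with Benjamini-Hochberg adjustment. Overlap code was tested on simulated data and gave the right bases in 20 of 20 sets. Python 3.11.15, numpy 2.4.6, pandas 2.3.3 and matplotlib 3.10.9 were used.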

Additional observations from a re-analysis of the deposited data

Results flagged for a closer look

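The exercised minus sedentary number of receptor genes listed had opposite signs in different arms. For H4K8ac it was 2 in the SIT arm, -12 in the left arm and -4 in the right arm, but with 2 or more peaks asked for it was below 0 in all 3 arms, the SIT lists then holding 15 and 19 genes. With equal numbers of peaks, exercised and sedentary lists held 25 and 26, 14 and 15, and 19 and 17 genes, which turned the sign in the SIT and right arms. Over all genes, 63.2 and 51.0, 30.0 and 60.1, and 34.1 and 49.0% were listed for H4K8ac in exercised and sedentary lists of the SIT, left and right arms. For H3K27me3 it was 11 in the SIT arm, 6 in the left arm and -16 in the right arm. With equal numbers of peaks, exercised and sedentary lists held 18 and 14, 18 and 18, and 9 and 16 genes, so no difference was left in the left arm. Over all genes, 38.1 and 22.5, 30.6 and 27.5, and 20.6 and 35.4% were listed for H3K27me3, the same order of conditions in each arm. Each arm has 1 list per condition, so the difference between arms was not tested.

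Single genes also went opposite ways. For H4K8ac, 4 genes (Adrb1, Chrm5, Drd3 and Htr7, beside 13.0% of all genes) were gained in an arm and lost in another. For H3K27me3, 9 genes (Adra1a, Chrnd, Drd1, Hrh1, Hrh4, Htr1b, Htr1d, Htr2c and Htr3a, beside 10.4% of all genes) were, and 8 of them were gained in the SIT arm and lost in the right arm. This difference was not tested either.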

How the results depend on the processing

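No paired analysis was possible because each group has 1 list with no column for a single sample, so the replicate numbers in the labels belong to no column. Depth is unknown, and each value below is 1 list. Values are given in the order of lists used above, or for the SIT, left and right arms. With promoter peaks alone, 14, 13, 6, 10, 4 and 10 genes were listed for H4K8ac, 5, 1 and 0 were gained for H4K8ac, 4, 5 and 6 were lost for H4K8ac, and 9, 5 and 4 were shared for H4K8ac. Under the same setting, 0, 0 and 10 were lost for H3K27me3. With distal intergenic peaks left out, 18, 11 and 10 were shared for H4K8ac, and 0, 1 and 12 were lost for H3K27me3. With any overlap of the gene span plus 3 kb, 24, 19, 12, 23, 11 and 18 genes were listed for H4K8ac, 7, 0 and 1 were gained for H4K8ac, 17, 12 and 10 were shared for H4K8ac, and 0, 2 and 14 were lost for H3K27me3. With a start site inside a peak, 12, 6, 4, 7, 3 and 5 genes were listed for H4K8ac, 8, 2 and 0 were gained for H4K8ac, 2, 5 and 2 were lost for H4K8ac, and 4, 2 and 3 were shared for H4K8ac. Under the same setting, the mean difference for H4K8ac was 0.333, 17, 10, 12, 12, 7 and 16 genes were listed for H3K27me3, 7, 3 and 0 were gained for H3K27me3, and 0, 3 and 9 were lost for H3K27me3. Under the same setting, 10, 9 and 7 were shared for H3K27me3, and the mean difference for H3K27me3 was -0.667. With 2 or more peaks asked for, 15, 19, 8, 17, 9 and 14 genes were listed for H4K8ac, 0, 0 and 0 were gained for H4K8ac, 4, 9 and 5 were lost for H4K8ac, and 15, 8 and 9 were shared for H4K8ac. Under the same setting, 1 gene was lost in 3 arms for H4K8ac (Chrna1), 16, 6, 9, 5, 3 and 12 genes were listed for H3K27me3, 11, 5 and 1 were gained for H3K27me3, and 1, 1 and 10 were lost for H3K27me3. Under the same setting, 5, 4 and 2 were shared for H3K27me3. With peaks of at least 1000 bp, 7, 0 and 2 were gained for H4K8ac. With equal numbers of peaks, the longer list of an arm reduced to its widest, 25, 26, 14, 15, 19 and 17 genes were listed for H4K8ac, 3, 2 and 5 were gained for H4K8ac, 4, 3 and 3 were lost for H4K8ac, and 1 gene was lost in 3 arms for H4K8ac (Chrnb3). Under the same setting, 18, 14, 18, 18, 9 and 16 genes were listed for H3K27me3, 6, 4 and 0 were gained for H3K27me3, 2, 4 and 7 were lost for H3K27me3, and the mean difference was -1 for H3K27me3 and 0 for H4K8ac. Bases covered within the gene span plus 3 kb, in place of the summed width of assigned peaks, came to 100500, 57982, 30398, 74988, 30608 and 73541 for H4K8ac and 298288, 166818, 199458, 179017, 100738 and 257450 for H3K27me3. By overlap with the span, 20 genes had H4K8ac alone, 17 H3K27me3 alone, 9 both marks and 3 neither. Without the SIT, left or right arm, the mean difference was -8, -1 and -5 genes for H4K8ac and -5, -2.5 and 8.5 for H3K27me3, where leaving out the SIT or the left arm turned the sign. The mean difference for H3K27me3 was also 1.67 with promoter peaks alone and with 2 or more peaks, 1 with distal intergenic peaks left out and 0 by overlap with the span. No setting could give a p under 0.25 over 3 arms, which H4K8ac reached with 2 or more peaks (mean -6, exact test). The cause of these shifts was not tested.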

Other observations

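Assignment of peaks to the nearest start moved some receptor genes between lists. Of the 4 receptor genes with no assigned peak, Chrna10 had an H3K27me3 peak within 3 kb of its span in 1 list, assigned to Art5. Chrng, listed for H3K27me3 alone, had an H4K8ac peak within 3 kb in 3 lists, assigned to Eif4e2. Adrb1, Adra1a, Hrh4 and Chrm5 had assigned H4K8ac peaks in 3, 6, 6 and 2 lists and none within 3 kb of the gene in any. Htr6 was assigned H4K8ac peaks in 6 lists and had one within 3 kb in 4, and Chrna7 in 5 lists and 1. By bases covered within 3 kb of the gene in place of assigned width, the order of the conditions turned in 14 of the comparisons of a gene in an arm. For H3K27me3 these were Adra1b, Chrna3, Drd2 and Htr3a in the left arm and Adra2b, Chrnb4 and Chrng in the SIT arm, and for H4K8ac Chrna4, Chrnb3 and Drd3 in the SIT arm, Htr5a and Htr6 in the left arm and Drd5 and Htr2a in the right arm.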
